A study of Mus musculus with 37 samples.

Results

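Cad, Dhodh, Umps, Ctps, Ctps2, Uck1, Uck2, Upp1, Cda and Uprt, the 10 enzyme genes followed here, make and recycle pyrimidine nucleotides. They were taken by symbol, for their function, from 30892 genes in a table of cardiac fibroblasts (CFs) and 20158 genes in a table of neonatal rat ventricular myocytes (NRVMs), and by Ensembl identifier from 31053 genes in 2 single-cell libraries. All 10 were found among the CF genes and in the single-cell libraries, and 9 in the NRVM table, where Cda was not analysed here. All 10 passed the low-count filter in CFs and all 9 passed it in NRVMs.

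ENPP1 is an ectonucleotidase that hydrolyses extracellular ATP to AMP, and the study asked how myocytes exposed to ENPP1 and ATP affect neighbouring nonmyocytes of the injured heart. CFs, wild-type C57BL/6 cells that the methods describe as immortalized with SV40 antigen, were kept in serum for 24 h and then without serum for 24 h. They then received medium conditioned by myocytes under vehicle, ENPP1, ATP, ENPP1+ATP or AMP for 24 or 48 h, with 2 libraries in each of the 10 groups. NRVMs, from wild-type Sprague-Dawley rats, were studied at 24 h under the same 5 media names, with 3 libraries in each of the 5 groups. GEO's labels call the NRVM treatment conditioned medium as well, without saying how it was conditioned, and their organism field gives mouse, against the rat cell type and strain. Nonmyocytes of injured C57BL/6 hearts were sequenced as single cells 7 days after myocardial infarction, from 1 control library and 1 ENPP1CKO library. In the ENPP1CKO animals, floxed Enpp1 was deleted with a tamoxifen-inducible Cre under the fibroblast promoter Col1a2. All of these animals were injured, and the number of hearts behind a library was not given in the sources used here. The paper describes its n as biological replicates. Whether the replicate cultures were separate isolations was not given in the sources used here. The p-values measure the spread between these libraries, part of which may be technical.

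Pyrimidine nucleotides are made de novo from glutamine, bicarbonate and aspartate. CAD, a single large protein, carries out the opening steps to dihydroorotate, DHODH oxidises this to orotate in the mitochondrion, and UMPS (UMP synthase) joins orotate to phosphoribosyl pyrophosphate (PRPP) and releases UMP. The CTP synthases encoded by Ctps and Ctps2 turn UTP into CTP. Salvage recovers nucleosides: the uridine-cytidine kinases of Uck1 and Uck2 phosphorylate uridine and cytidine, uridine phosphorylase 1 (Upp1) splits uridine into uracil and ribose 1-phosphate, cytidine deaminase (Cda) turns cytidine into uridine, and Uprt is named for uracil phosphoribosyltransferase. Dividing cells draw on the pathway for RNA and DNA.

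The CF libraries held 32184799 to 115824659 counts each and the NRVM libraries 13481389 to 16977980. Among the genes of the fibroblast marker list, none was at 0 in CFs and the summed level was 6871 to 7219 CPM (counts scaled to a common library size) under vehicle at 24 h. It was 3374 to 3483 CPM under ENPP1+ATP and 2642 to 2852 CPM under AMP at that time. The macrophage list summed to 10.5 to 12.8 CPM under vehicle and 30.5 to 37.2 CPM under ENPP1+ATP at 24 h. The added signal came from Cd68 and Csf1r, while C1qa, C1qb, C1qc, Adgre1, Fcgr1 and Mrc1 stayed near 0. Under AMP at 24 h this list summed to 55.0 to 57.2 CPM. At 48 h it was at 11.3 to 12.5 CPM under vehicle, 68.5 to 79.4 CPM under ENPP1+ATP and 73.9 to 85 CPM under AMP. The smooth muscle or pericyte list summed at 48 h to 127 to 132 CPM under vehicle, 351 to 363 CPM under ENPP1+ATP and 395 to 421 CPM under AMP. Of its 8 genes only 1 was above 1 CPM under vehicle, and 2 were under ENPP1+ATP or AMP, so most of the list was near 0. Summed cell cycle genes were at 4229 to 4243 CPM under vehicle and 6432 to 6823 CPM under ENPP1+ATP at 24 h. In NRVMs the fibroblast list summed to 24760 to 26150 CPM under vehicle and 8287 to 8752 CPM under ENPP1+ATP, and the cardiomyocyte list to 24190 to 25010 and 22070 to 23130 CPM. Under ATP the NRVM fibroblast list summed to 10380 to 11710 CPM and the cardiomyocyte list to 13890 to 14900 CPM, and under AMP to 11530 to 12310 and 24960 to 26710 CPM. These lists moved with the media that also moved the pyrimidine genes, and their part in the results below was not tested. In such bulk samples, fewer cells of a type and less RNA per cell cannot be told apart.

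Levels per length, in RPKM (CPM divided by exon length in kilobases), ordered the genes in CFs, with exon lengths from GENCODE vM21 (GRCm38). Under vehicle at 24 h Ctps was highest, with a mean of 44.0 RPKM and libraries at 41.8 and 46.2 RPKM. Umps followed at 24.9 RPKM. The libraries of Ctps2, at a mean of 20.1 RPKM, overlapped those of Cad at 20.4 and of Uck1 at 19.4 RPKM, while Cad and Uck1 did not overlap each other. Uck2 stood at 16.6 and Uprt at 6.85 RPKM. Cda at 3.24 and Dhodh at 2.84 RPKM overlapped, and Upp1 was lowest at 0.624 RPKM, with libraries at 0.549 and 0.698 RPKM. Under AMP at 48 h the order had changed: Cad, at 32.5 RPKM, was second to Ctps at 38.8 RPKM, and Upp1 at 1.92 RPKM overlapped Dhodh at 1.89 RPKM.

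Upp1 (ENSMUSG00000020407, chr11:9118103-9136170, plus strand, GRCm38) had the largest fold change of the 10 genes under ENPP1+ATP and AMP in CFs, where it rose, while it fell in NRVMs. In CFs at 24 h its level was 1.08 and 1.37 CPM under vehicle, 1.13 and 1.03 CPM under ENPP1, 1.76 and 1.51 CPM under ATP, 3.72 and 3.03 CPM under ENPP1+ATP, and 5.28 and 5.21 CPM under AMP. At 48 h it was 0.589 and 0.832 CPM under vehicle, 0.479 and 0.833 CPM under ENPP1, 1.37 and 1.16 CPM under ATP, 3.65 and 3.71 CPM under ENPP1+ATP, and 3.61 and 3.93 CPM under AMP. Every ENPP1+ATP or AMP library lay above every vehicle, ENPP1 and ATP library of its time. The gene rose 2.81-fold under ENPP1+ATP at 24 h (log2 fold change 1.49 ± 0.24 SE, edgeR adjusted p = 1.23e-05) and 5.19-fold at 48 h (2.38 ± 0.26, adjusted p = 4.19e-08). Under AMP it rose 4.36-fold at 24 h (2.12 ± 0.24, adjusted p = 4.16e-08) and 5.32-fold at 48 h (2.41 ± 0.26, adjusted p = 3.12e-08). The counts behind these levels were low, between 16 and 398 per library. Leaving out single libraries kept the log2 fold change under ENPP1+ATP between 1.30 and 1.64 at 24 h and between 2.14 and 2.63 at 48 h.

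**Figure D1:**
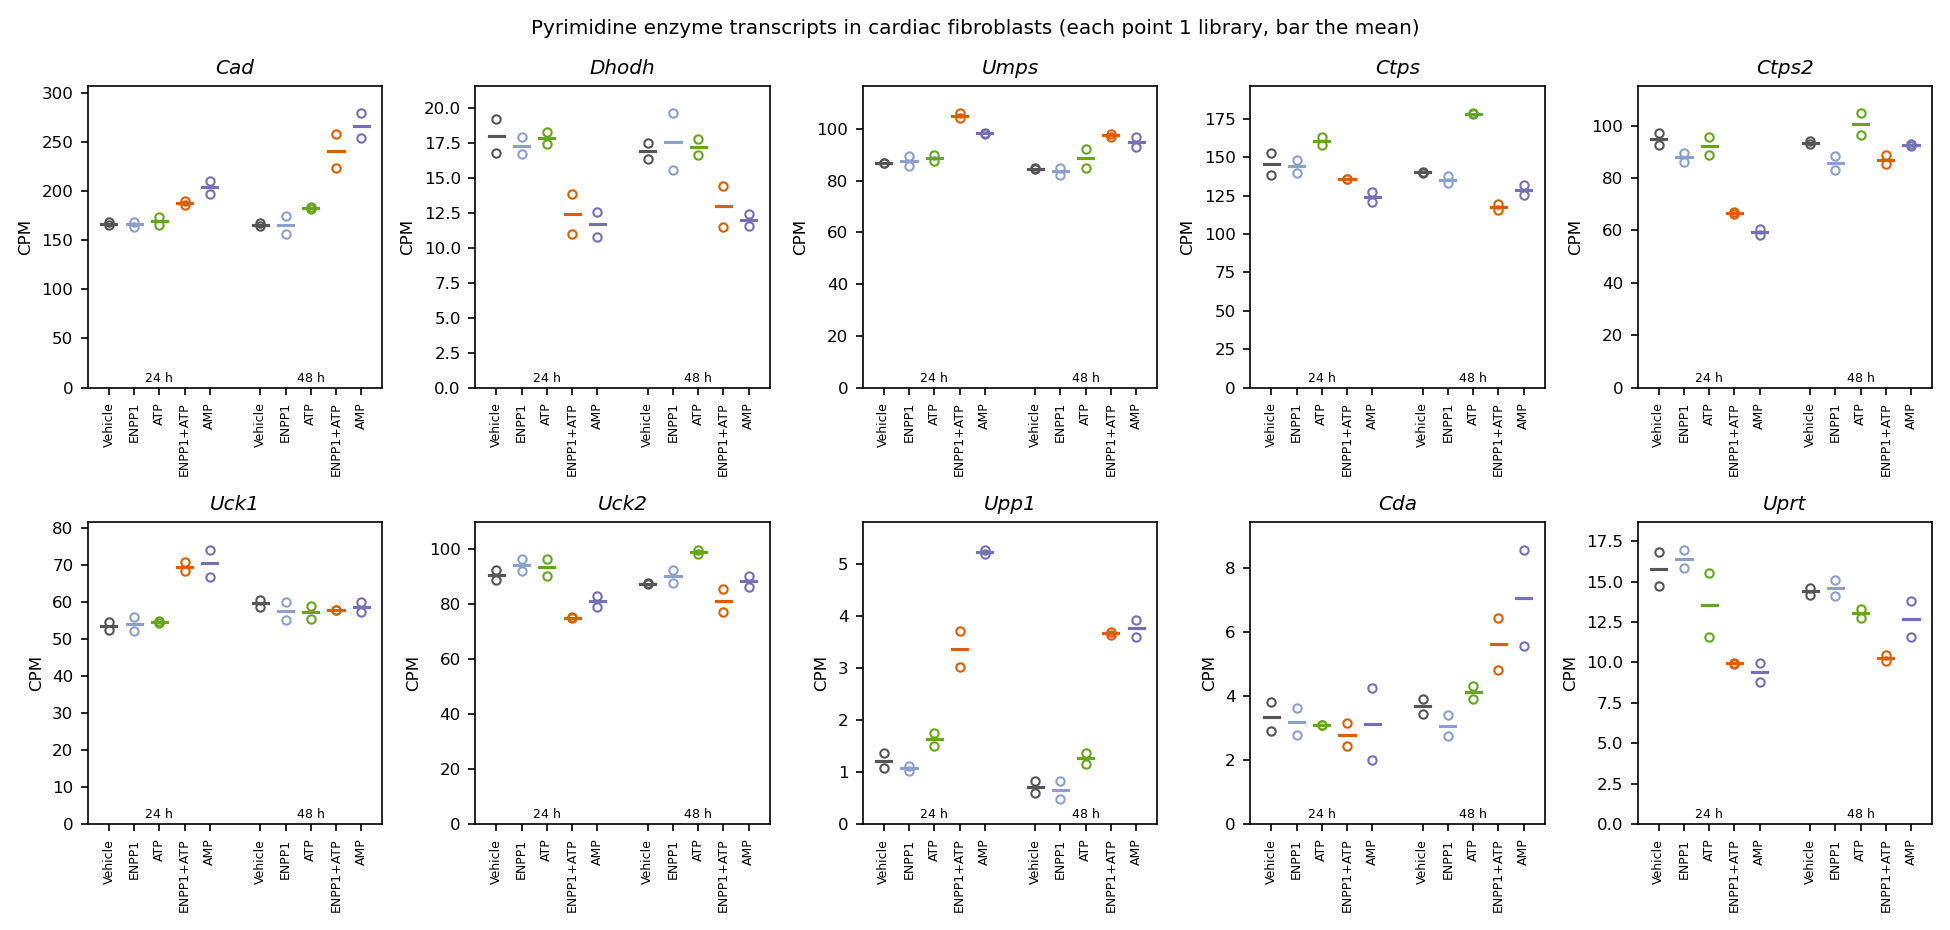
Level of each of the 10 genes in CFs in CPM (vertical axes), with 1 open point per library, bars at the mean of 2 libraries, and the 5 media at 24 h followed by the same 5 at 48 h. The Upp1 libraries under ENPP1+ATP or AMP lie between 3.03 and 5.28 CPM, against at most 1.76 CPM under the other media, and the mean of Cad is highest under AMP at 48 h, where its libraries overlap those of ENPP1+ATP.

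The enzymes of de novo synthesis moved in unlike directions in CFs. Cad (ENSMUSG00000013629, chr5:31054780-31078479, plus strand) stood at 165 and 168 CPM under vehicle, 189 and 186 CPM under ENPP1+ATP and 197 and 210.3 CPM under AMP at 24 h. At 48 h it was at 164 and 167 CPM under vehicle, 223 and 258 CPM under ENPP1+ATP, and 254 and 279 CPM under AMP. At both times the libraries of these 2 media lay above those of vehicle. Cad rose by a log2 fold change of 0.17 ± 0.06 under ENPP1+ATP at 24 h (adjusted p = 0.0225) and 0.54 ± 0.06 at 48 h (1.45-fold, adjusted p = 6.72e-08). Under AMP it rose by 0.29 ± 0.06 at 24 h (adjusted p = 0.000247) and 0.68 ± 0.06 at 48 h (1.61-fold, adjusted p = 1.09e-09). The 24 h call for Cad under ENPP1+ATP was lost without ENPP1+ATP replicate 1 (adjusted p = 0.105), vehicle replicate 1 (0.132) or vehicle replicate 2 (0.0655).

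Umps (ENSMUSG00000022814, chr16:33954782-33967038, minus strand), whose product makes UMP from orotate, was at 86.7 and 86.8 CPM under vehicle, 106 and 104 CPM under ENPP1+ATP and 98.6 and 97.9 CPM under AMP at 24 h. At 48 h it was at 84.7 and 84.7 CPM under vehicle, 97.0 and 97.9 CPM under ENPP1+ATP, and 93.2 and 96.8 CPM under AMP. The groups did not overlap with vehicle at either time. Umps rose by 0.28 ± 0.05 under ENPP1+ATP at 24 h (1.21-fold, adjusted p = 2.56e-05) and by 0.20 ± 0.05 at 48 h (adjusted p = 0.00117). Under AMP it rose by 0.18 ± 0.05 at 24 h (adjusted p = 0.00246) and 0.17 ± 0.05 at 48 h (adjusted p = 0.00673). Both AMP calls for Umps were lost without the low-count filter (adjusted p = 0.0629 at 24 h and 0.0761 at 48 h), and the 48 h call also without AMP replicate 2 (0.0624). Exons of Umps overlap Gm15829 on the other strand, and the strand setting of the counting was not given in the sources used here.

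Dhodh (ENSMUSG00000031730, chr8:109591343-109608673, minus strand) went the other way. Its libraries were at 16.8 and 19.2 CPM under vehicle, 10.99 and 13.8 CPM under ENPP1+ATP and 10.7 and 12.6 CPM under AMP at 24 h. At 48 h they were at 16.4 and 17.5, 11.5 and 14.4, and 12.4 and 11.5 CPM for the same media. No library of either medium reached the vehicle libraries. Dhodh fell by 0.53 ± 0.12 on the log2 scale under ENPP1+ATP at 24 h (adjusted p = 0.00099) and by 0.39 ± 0.13 at 48 h (adjusted p = 0.0135). It fell by 0.61 ± 0.12 under AMP at 24 h (adjusted p = 0.000171) and by 0.50 ± 0.13 at 48 h (adjusted p = 0.00213). The ENPP1+ATP call for Dhodh at 48 h was lost without ENPP1+ATP replicate 1 (adjusted p = 0.219) or vehicle replicate 2 (0.085).

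The promoters of the 3 genes that rose at both times are shown so that their start regions can be compared. Each holds 250 bases before and 20 after the start of a RefSeq RNA in GRCm38.p6, read 5′ to 3′ on the gene's strand, with matches to 3 motifs in capitals: GGGCGG or its complement CCGCCC (the GC box), TGACGTCA (the cAMP response element) and TGACTCA or its complement TGAGTCA (the AP-1 site). The Cad window is chr5:31054530-31054799 on the plus strand, the Umps window chr16:33967019-33967288 on the minus strand, and the Upp1 window chr11:9117853-9118122 on the plus strand.
Cad: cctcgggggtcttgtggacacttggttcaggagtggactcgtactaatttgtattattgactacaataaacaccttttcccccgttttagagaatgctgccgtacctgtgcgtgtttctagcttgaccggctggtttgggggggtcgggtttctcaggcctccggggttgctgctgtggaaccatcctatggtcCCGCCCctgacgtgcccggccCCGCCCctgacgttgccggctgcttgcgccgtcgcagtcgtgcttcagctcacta
Umps: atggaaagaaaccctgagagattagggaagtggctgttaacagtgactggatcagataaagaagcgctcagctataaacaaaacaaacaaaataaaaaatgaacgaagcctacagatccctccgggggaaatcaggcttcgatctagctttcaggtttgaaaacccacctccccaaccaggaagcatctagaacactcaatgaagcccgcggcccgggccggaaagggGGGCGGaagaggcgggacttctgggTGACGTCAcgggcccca
Upp1: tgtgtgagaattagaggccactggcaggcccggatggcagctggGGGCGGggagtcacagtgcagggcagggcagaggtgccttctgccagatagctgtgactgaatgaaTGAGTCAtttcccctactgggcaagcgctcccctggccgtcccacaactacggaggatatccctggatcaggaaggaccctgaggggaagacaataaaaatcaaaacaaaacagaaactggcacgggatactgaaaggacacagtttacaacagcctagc
Searched on both strands at each gene's most upstream RefSeq start, GGGCGG was in 34.4% of 27025 RefSeq promoters of this length and in 7 of the 9 genes for which a promoter was matched. TGACGTCA was in 1.79% of promoters and, among the 9, in Umps. TGACTCA was in 4.73% and, among the 9, in Upp1, whose most upstream window overlaps the one printed. CCAAT was in 36.0% of promoters and in Uck2 and Uprt, and CACGTG was in 6.63% and in 0 of the 9. The motifs were chosen with these sequences in view, and a match is a description of letters only.

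The CTP synthases differed by medium. Ctps was at 139 and 153 CPM under vehicle, 158 and 163 CPM under ATP, 136 and 136 CPM under ENPP1+ATP, and 121 and 127 CPM under AMP at 24 h. At 48 h it was at 140.1 and 141 CPM under vehicle, 179 and 178 CPM under ATP, 119.5 and 115 CPM under ENPP1+ATP, and 132 and 126 CPM under AMP. The ATP libraries were the highest and the ENPP1+ATP libraries the lowest at 48 h. Ctps rose under ATP alone at 48 h (0.34 ± 0.05, 1.27-fold, adjusted p = 3.49e-05). It fell by 0.26 ± 0.05 on the log2 scale under ENPP1+ATP at 48 h (adjusted p = 0.000155), after a difference at 24 h of -0.10 ± 0.05 (adjusted p = 0.0954). Under AMP it fell by 0.23 ± 0.05 at 24 h (adjusted p = 0.000409) and by 0.13 ± 0.05 at 48 h (adjusted p = 0.045). That last Ctps call was lost on leaving out any 1 of AMP replicate 1, AMP replicate 2, vehicle replicate 1 and vehicle replicate 2 (adjusted p from 0.0553 to 0.283).

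Ctps2 was at 97.3 and 92.5 CPM under vehicle, 67.1 and 66.1 CPM under ENPP1+ATP, and 58.2 and 60.6 CPM under AMP at 24 h. At 48 h it was at 94.2 and 92.8, 85.2 and 89.0, and 93.0 and 92.2 CPM. All ENPP1+ATP and AMP libraries lay below vehicle at 24 h, and AMP overlapped vehicle at 48 h. Ctps2 fell by 0.51 ± 0.05 on the log2 scale under ENPP1+ATP (adjusted p = 1.73e-08) and by 0.68 ± 0.05 under AMP (adjusted p = 1.03e-10) at 24 h. At 48 h the differences were -0.10 ± 0.05 (adjusted p = 0.125) and -0.01 (adjusted p = 0.859).

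Among the uridine-cytidine kinases, Uck1 rose and Uck2 fell at 24 h in CFs. Uck1 was at 54.4 and 52.5 CPM under vehicle, 70.7 and 68.3 CPM under ENPP1+ATP and 74.0 and 66.7 CPM under AMP. Uck2 was at 88.6 and 92.3, 75.3 and 74.9, and 79.1 and 82.8 CPM for these media. Neither gene overlapped between vehicle and the other 2 media. Uck1 rose by 0.38 ± 0.06 under ENPP1+ATP (1.30-fold, adjusted p = 9.24e-06) and by 0.39 ± 0.06 under AMP (adjusted p = 4.37e-06). Uck2 fell by 0.27 ± 0.05 under ENPP1+ATP (adjusted p = 0.00019) and by 0.16 ± 0.05 under AMP (adjusted p = 0.0157). The AMP call for Uck2 was lost without AMP replicate 1 (adjusted p = 0.126) or vehicle replicate 2 (0.102). At 48 h the differences from vehicle were -0.05 ± 0.06 (adjusted p = 0.577) for Uck1 and -0.11 ± 0.05 (adjusted p = 0.115) for Uck2 under ENPP1+ATP, and -0.02 (adjusted p = 0.798) and 0.01 (adjusted p = 0.865) under AMP. Exons of Uck2 overlap Gm2453 and those of Uck1 a few bases of Pomt1, each on the other strand.

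Uprt fell in 3 of the 4 comparisons of these media with vehicle. Its levels at 24 h were 14.7 and 16.8 CPM under vehicle, 9.91 and 9.98 CPM under ENPP1+ATP, and 8.80 and 9.95 CPM under AMP. At 48 h they were 14.2 and 14.6, 10.1 and 10.5, and 13.8 and 11.6 CPM. Uprt fell by 0.66 ± 0.12 (adjusted p = 5.53e-05) and 0.74 ± 0.12 (adjusted p = 9.52e-06) under ENPP1+ATP and AMP at 24 h, and by 0.49 ± 0.12 under ENPP1+ATP at 48 h (adjusted p = 0.0018). Under AMP at 48 h the difference was -0.18 ± 0.12 (adjusted p = 0.226).

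Cda was among the low genes, at 3.81 and 2.91 CPM under vehicle at 24 h, and its differences at 24 h were -0.28 ± 0.28 under ENPP1+ATP (adjusted p = 0.43) and -0.08 ± 0.27 under AMP (adjusted p = 0.824). At 48 h its libraries were at 3.44 and 3.91 CPM under vehicle, 4.80 and 6.44 CPM under ENPP1+ATP, and 5.55 and 8.56 CPM under AMP. Cda rose 1.92-fold under AMP at 48 h (0.94 ± 0.26, adjusted p = 0.00573), a call lost without AMP replicate 2 (adjusted p = 0.14) or vehicle replicate 1 (0.0623). Under ENPP1+ATP at 48 h the difference was 0.61 ± 0.27 (adjusted p = 0.0701). It passed with DESeq2 (adjusted p = 0.0458) and with a replicate block.

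**Figure D2:**
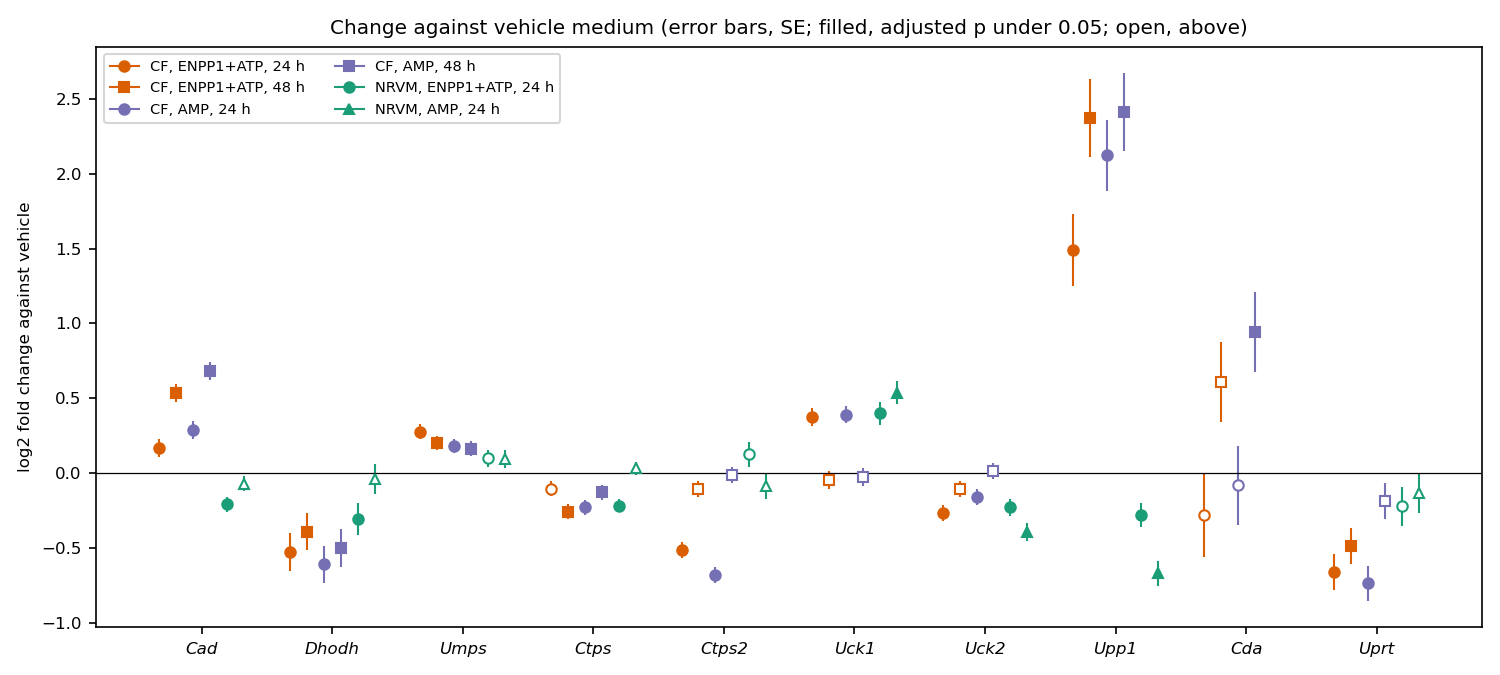
Log2 fold change against vehicle of each gene (horizontal axis) for ENPP1+ATP and AMP in CFs at 24 and 48 h and in NRVMs at 24 h, with SE bars and filled points where the edgeR adjusted p was under 0.05. Upp1 lies at 1.49 to 2.41 in CFs and at -0.28 and -0.67 in NRVMs, and Cda has no NRVM point.

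Counted over the 10 genes, ENPP1+ATP at 24 h gave 4 that rose and 4 that fell, where 23.9% and 25.3% of the 17879 genes tested rose and fell. Their median log2 fold change was -0.18, against -0.00456 over all genes tested. AMP at 24 h gave 4 up and 5 down (25.3% and 27.5% of all genes). At 48 h ENPP1+ATP gave 3 up and 3 down (20.8% and 24.4%), and AMP 4 up and 2 down (21.1% and 22.9%). ENPP1+ATP and AMP were compared with the same vehicle libraries, so their counts are not independent.

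In CFs, ATP and ENPP1 given singly gave few calls among the 10 genes, where shares over all genes were low too. ATP alone gave 0 calls among the 10 at 24 h in CFs (background 4.77% up and 6.32% down), with Ctps, at 0.14 ± 0.05 (adjusted p = 0.0722), under an unadjusted p of 0.05. DESeq2 called 1 gene in that comparison, Ctps (adjusted p = 0.0246). At 48 h ATP raised Ctps, above, and Uck2 by 0.18 ± 0.05 (adjusted p = 0.0421), and lowered none of the 10 (background 5.35% and 2.48%). The Uck2 call was lost without any 1 of ATP replicates 1 and 2 and vehicle replicates 1 and 2 (adjusted p from 0.131 to 0.287). For Upp1 the ATP differences were 0.45 ± 0.25 at 24 h (adjusted p = 0.329) and 0.84 ± 0.28 at 48 h (adjusted p = 0.0657). ENPP1 alone gave 0 calls among the 10 at 24 h (edgeR background 0.0% up and 0.0% down) and 0 at 48 h (0.0% and 0.0%), and DESeq2 also called 0 at both times. At an unadjusted p under 0.05, Ctps2 was the 1 gene of the 10 at each time, with differences of -0.11 ± 0.05 and -0.13 ± 0.05.

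Against ATP alone, which shares the nucleotide but lacks the enzyme, ENPP1+ATP gave 3 genes up and 5 down at 24 h (21.8% and 22.1% of all genes). Upp1 was 2.06-fold higher (1.04 ± 0.24, adjusted p = 0.000961), Uck1 higher by 0.35 ± 0.06 (adjusted p = 3.46e-05) and Umps by 0.24 ± 0.05 (adjusted p = 0.000176). Dhodh, Ctps2, Uprt, Uck2 and Ctps were lower, from -0.52 ± 0.13 for Dhodh to -0.24 for Ctps. Cad was at 0.15 ± 0.06 (adjusted p = 0.0544), a difference that passed with a replicate block. The Dhodh call was lost without ENPP1+ATP replicate 1 (adjusted p = 0.0578) and the Uprt call without ATP replicate 2 (0.206). At 48 h the count was again 3 up and 5 down (18.2% and 21.3%). Upp1 (1.53 ± 0.25, adjusted p = 1.73e-05), Cad (0.40 ± 0.06, adjusted p = 8.63e-06) and Umps (0.14 ± 0.05, adjusted p = 0.0241) were higher, while Ctps (-0.60 ± 0.05, adjusted p = 7.12e-10) was the farthest below. The Umps call was lost without ATP replicate 1 (adjusted p = 0.438), ENPP1+ATP replicate 1 (0.0691) or ENPP1+ATP replicate 2 (0.101). The call for Dhodh (-0.41 ± 0.13, adjusted p = 0.0112) was lost without ATP replicate 2 (0.074) or ENPP1+ATP replicate 1 (0.175), and that for Ctps2 (-0.21 ± 0.05, adjusted p = 0.00297) without ATP replicate 2 (0.0668). Uprt, at -0.34 ± 0.12 (adjusted p = 0.0275), lost its call without any 1 of the 4 libraries (adjusted p from 0.0509 to 0.121).

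Between AMP and ENPP1+ATP themselves, 0 of the 10 genes passed the test at 24 h (2.6% of all genes higher and 3.65% lower under AMP) or at 48 h (0.0895% and 0.0727%). DESeq2 also called 0 at both times. Under an unadjusted p of 0.05 were Umps, Ctps, Ctps2 and Upp1 at 24 h and Cad, Ctps, Uck2 and Uprt at 48 h. The largest of these was Upp1 at 24 h, higher under AMP by 0.63 ± 0.22 (adjusted p = 0.0935).

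The 2 times were compared by the change from 24 to 48 h under a medium, less the change under vehicle. For ENPP1+ATP this was 0.37 ± 0.09 for Cad (adjusted p = 0.00176), 0.41 ± 0.08 for Ctps2 (adjusted p = 0.000173) and -0.42 ± 0.09 for Uck1 (adjusted p = 0.000426), that is 2 higher and 1 lower (15.1% and 14.9% of all genes). For AMP, Ctps2 at 0.66 ± 0.08 (adjusted p = 2.26e-07), Cad at 0.39 ± 0.09 (adjusted p = 0.00083), Uprt at 0.55 ± 0.17 (adjusted p = 0.0132) and Cda at 1.02 ± 0.38 (adjusted p = 0.0412) were higher. Uck1, at -0.41 ± 0.08 (adjusted p = 0.000461), was the 1 lower (17.3% and 14.4%). Leaving out single libraries moved the AMP value of Cda between 0.63 and 1.72 and that of Uprt between 0.43 and 0.68. Each lost its call in some of these fits. Upp1 gave 0.89 ± 0.35 for ENPP1+ATP (adjusted p = 0.0616) and 0.29 ± 0.35 for AMP (adjusted p = 0.586). With a replicate block Cda also passed as higher for ENPP1+ATP. Under vehicle itself 0 of the 10 passed between 24 and 48 h (1.68% up and 3.2% down), and DESeq2 called 0. Unadjusted, Uck1 (0.16 ± 0.06) and Upp1 (-0.76 ± 0.27, adjusted p = 0.116) were under 0.05. Under ENPP1+ATP, Cda (1.00 ± 0.28), Ctps2 (0.39 ± 0.05) and Cad (0.36 ± 0.06) rose and Uck1 and Ctps fell from 24 to 48 h (19.5% and 21.2% of all genes). The Cda call in that comparison was lost without ENPP1+ATP replicate 1 at 24 h (adjusted p = 0.0787) or ENPP1+ATP replicate 2 at 48 h (0.0831).

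In NRVMs, media of the same names moved a different mix of these genes. Upp1 was at 34.7, 37.6 and 39.4 CPM under vehicle, 35.8, 33.8 and 37.3 CPM under ENPP1, 21.1, 18.0 and 19.7 CPM under ATP, 32.4, 27.6 and 32.1 CPM under ENPP1+ATP, and 20.7, 23.6 and 26.0 CPM under AMP. The ATP and AMP libraries were the lowest, and no library of ATP, ENPP1+ATP or AMP reached the vehicle libraries. Upp1 fell by 0.28 ± 0.08 on the log2 scale under ENPP1+ATP (adjusted p = 0.0031), by 0.67 ± 0.08 under AMP (adjusted p = 4.03e-09) and by 0.93 ± 0.08 under ATP (adjusted p = 7.72e-13). The cardiomyocyte list was lowest under ATP, while under AMP it was at 24960 to 26710 CPM, against 24190 to 25010 CPM under vehicle. A link between this list and Upp1 was not tested. The difference between CFs and NRVMs, which are cells of 2 species in separate tables, was not tested.

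Uck1 rose in NRVMs as well. It was at 25.2, 28.6 and 28.2 CPM under vehicle, 36.8, 35.8 and 35.7 CPM under ENPP1+ATP, 37.8, 40.7 and 40.7 CPM under AMP, and 38.0, 35.9 and 42.6 CPM under ATP. All 9 libraries of these 3 media lay above the vehicle libraries. Uck1 rose by 0.40 ± 0.08 under ENPP1+ATP (1.32-fold, adjusted p = 1.49e-05), 0.54 ± 0.07 under AMP (adjusted p = 4.26e-08) and 0.51 ± 0.07 under ATP (adjusted p = 1.37e-07). Uck2 fell under the same 3 media, from 68.1, 68.1 and 72.3 CPM under vehicle to 58.0, 55.4 and 64.6 CPM under ENPP1+ATP and 54.1, 53.5 and 51.0 CPM under AMP. Its log2 fold changes were -0.23 ± 0.06 (adjusted p = 0.000867), -0.39 ± 0.06 (adjusted p = 2.07e-07) and, under ATP, -0.24 ± 0.06 (adjusted p = 0.000394).

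Of the de novo enzymes in NRVMs, Cad was at 112, 120.4 and 120.3 CPM under vehicle and 96.3, 102 and 107 CPM under ENPP1+ATP, and it fell by 0.21 ± 0.05 (adjusted p = 0.000423). Dhodh was at 16.4, 14.6 and 14.9 CPM under vehicle and 13.3, 12.1 and 11.8 CPM under ENPP1+ATP, a fall of 0.31 ± 0.10 (adjusted p = 0.0118) that was lost without ENPP1+ATP replicate 3 (adjusted p = 0.051) or vehicle replicate 1 (0.0638). Umps was at 54.4, 54.0 and 51.9 CPM under vehicle and 58.5, 56.6 and 56.7 CPM under ENPP1+ATP. These Umps groups did not overlap, but the difference of 0.10 ± 0.06 did not pass the test (adjusted p = 0.147). Ctps fell by 0.22 ± 0.04 under ENPP1+ATP (adjusted p = 4.76e-05). Ctps2 (0.13, adjusted p = 0.208) and Uprt (-0.22, adjusted p = 0.151) did not pass.

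Of the 9 genes in NRVMs, ENPP1+ATP thus raised 1 and lowered 5, where 28.6% and 27.4% of the 13461 genes tested rose and fell. Their median log2 fold change was -0.22, against 0.01 over all genes. AMP raised 1 and lowered 2 (29.2% and 28.0%), and the other 6 genes lay between -0.13 ± 0.13 for Uprt (adjusted p = 0.396) and 0.10 ± 0.06 for Umps (adjusted p = 0.162). ATP raised 2, Uck1 and Ctps2, and lowered 4, Upp1, Dhodh, Uck2 and Ctps (30.2% and 29.7%). The ATP calls for Ctps2 (0.25 ± 0.08, adjusted p = 0.00926) and Dhodh (-0.29 ± 0.10, adjusted p = 0.0167) were lost on leaving out a library, Ctps2 without ATP replicate 3 (adjusted p = 0.0546) or vehicle replicate 2 (0.101) and Dhodh without vehicle replicate 1 (0.0711). ENPP1 gave 0 calls by edgeR (0.0% and 0.0%) and by DESeq2, with Umps (-0.14 ± 0.06) the 1 gene at an unadjusted p under 0.05.

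**Figure D3:**
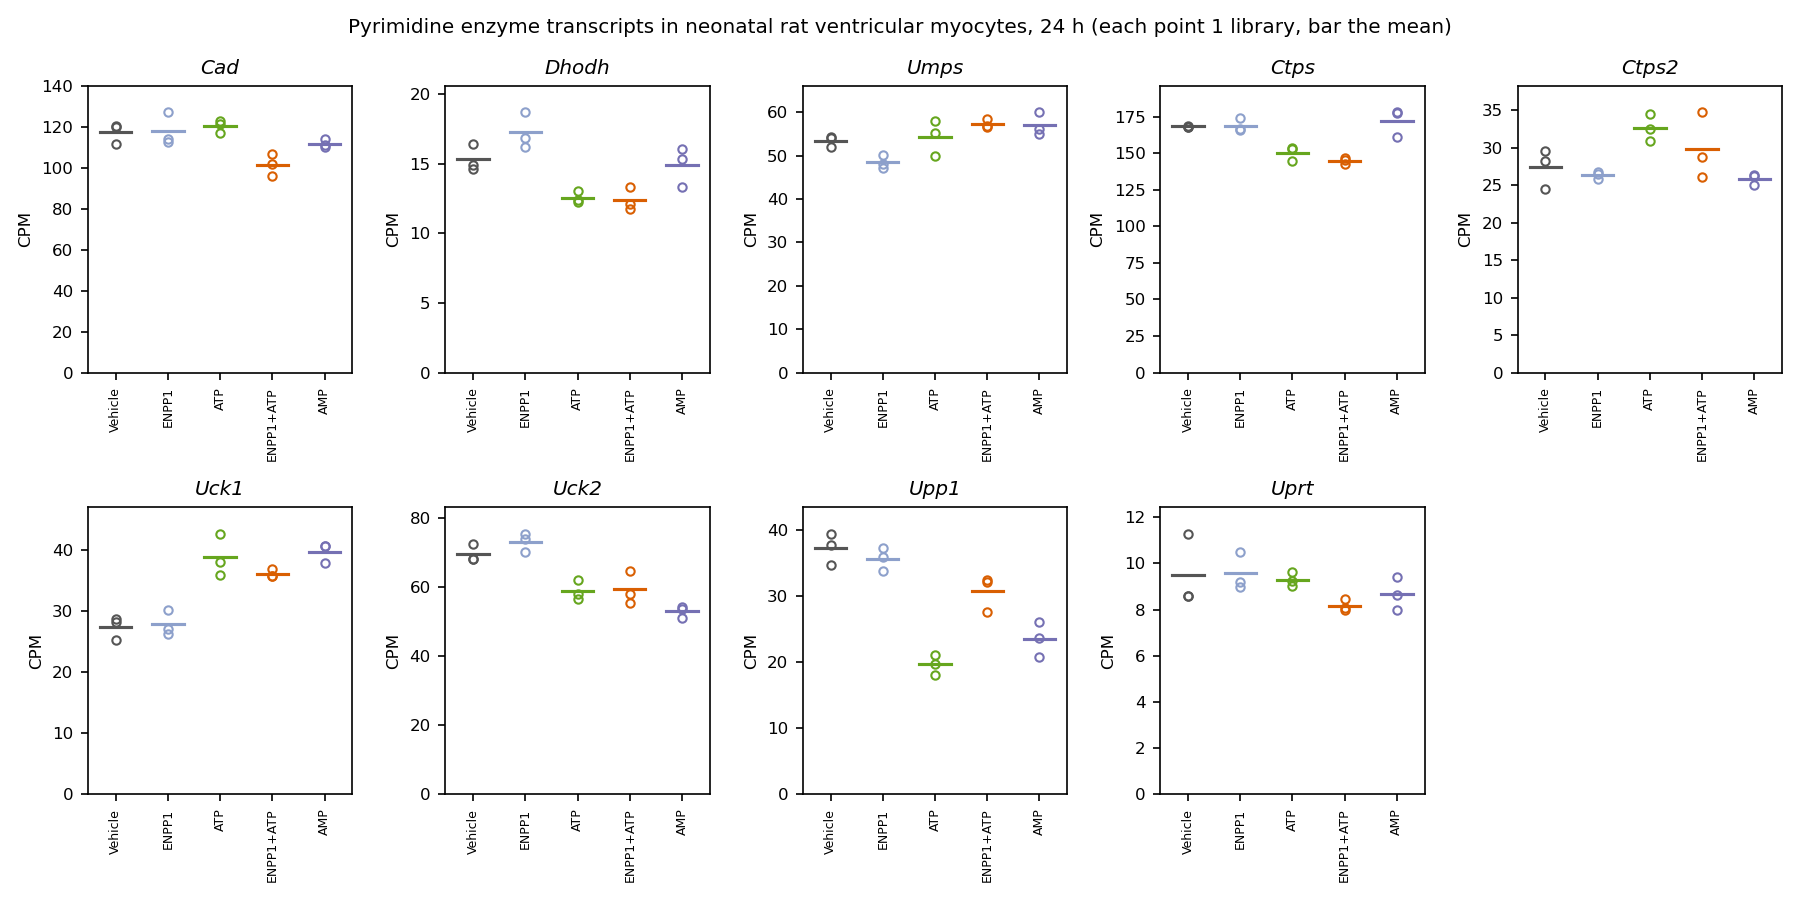
Level of each of the 9 genes found in NRVMs in CPM (vertical axes) under the 5 media at 24 h, with 1 open point per library and bars at the mean of 3 libraries. Upp1 lies at 34.7 to 39.4 CPM under vehicle and 18.0 to 21.1 CPM under ATP, and Uck1 is above vehicle under ATP, ENPP1+ATP and AMP.

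The rest of the pathway was followed in a list of 43 other genes, of which 38 were tested in CFs. ENPP1+ATP at 24 h raised 12 and lowered 10 of them, and at 48 h raised 10 and lowered 15. The share of all genes that rose and fell, 23.9% and 25.3% at 24 h and 20.8% and 24.4% at 48 h, is the background for this list and for each CF group of it. No test of these groups was made. Of 11 genes listed for deoxypyrimidine supply, 7 rose and 2 fell at 24 h (background 23.9% and 25.3%), with a median log2 fold change of 0.21. Among them Rrm2, a subunit of ribonucleotide reductase, rose by 1.59 ± 0.06 (adjusted p = 1.77e-15) and Dck, deoxycytidine kinase, by 0.65 ± 0.05 (adjusted p = 1.3e-10). At 48 h 1 of these 11 rose and 7 fell, though Rrm2 remained higher by 1.23 ± 0.06 (adjusted p = 7.36e-14). Summed cell cycle genes were also above vehicle, at 6432 to 6823 CPM at 24 h and 5309 to 5314 CPM at 48 h against 4229 to 4243 and 4460 to 4486 CPM under vehicle.

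Of the 6 genes listed for PRPP supply and use, 3 rose and 0 fell at 24 h and 4 rose and 0 fell at 48 h under ENPP1+ATP in CFs (background 23.9% and 25.3%, then 20.8% and 24.4%). The list was Prps1, Prps2, Prpsap1, Prpsap2, Aprt and Hprt. Prps1, a PRPP synthetase, rose by 0.64 ± 0.07 at 24 h (adjusted p = 1.42e-08) and Aprt, which joins adenine to PRPP, by 0.92 ± 0.06 at 48 h (adjusted p = 4.15e-12). Genes of nucleotide phosphorylation gave 1 up and 4 down of 8 at 24 h and 2 up and 3 down at 48 h. Nme4 rose by 1.45 ± 0.11 at 48 h (adjusted p = 5.64e-11) and Cmpk2 fell by 0.72 ± 0.12 (adjusted p = 0.000153). Nme1 and Nme2, nucleoside diphosphate kinases, fell by 0.79 ± 0.13 (adjusted p = 1.46e-05) and 1.51 ± 0.39 (adjusted p = 0.00217) at 24 h. Both share exon bases with the readthrough gene Gm20390, so their counts are uncertain.

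Breakdown genes gave 1 up and 3 down of 9 at 24 h and 2 up and 4 down at 48 h, against the same background. Dpyd, which opens the breakdown of uracil, the base that uridine phosphorylase releases, rose by 1.03 ± 0.25 at 24 h (adjusted p = 0.0013) and 1.38 ± 0.25 at 48 h (adjusted p = 7.55e-05). Nt5e, the ectonucleotidase that removes the phosphate of AMP, fell by 1.75 ± 0.41 (adjusted p = 0.000893) and 1.78 ± 0.40 (adjusted p = 0.000785). Nt5c3 fell by 0.74 ± 0.09 at 24 h (adjusted p = 1.91e-07) and Nt5m by 0.77 ± 0.12 at 48 h (adjusted p = 1.12e-05), both nucleotidases. Of the 4 tested nucleoside carriers 0 rose and 1 fell at 24 h, and 1 rose and 1 fell at 48 h.

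In NRVMs 35 of the 43 genes were tested, and ENPP1+ATP raised 15 and lowered 6, where 28.6% and 27.4% of all genes rose and fell. Deoxypyrimidine genes gave 7 up and 2 down, with Dck at 1.05 ± 0.14 (adjusted p = 1.43e-08) and Rrm2 at 0.82 ± 0.05 (adjusted p = 1.59e-17), while Dctd, which deaminates dCMP, fell by 0.46 ± 0.12 (adjusted p = 0.000914). Nme3 rose by 1.20 ± 0.16 (adjusted p = 2.03e-08) and Nt5c by 0.83 ± 0.15 (adjusted p = 5.9e-06). Nt5e fell by 0.55 ± 0.17 (adjusted p = 0.00488), Nme1 by 0.41 ± 0.07 (adjusted p = 4.29e-06) and Nme2 by 0.31 ± 0.04 (adjusted p = 7.03e-09). Summed cell cycle genes in these myocyte cultures were at 954 to 992 CPM under vehicle and 957 to 968 CPM under ENPP1+ATP.

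**Figure D4:**
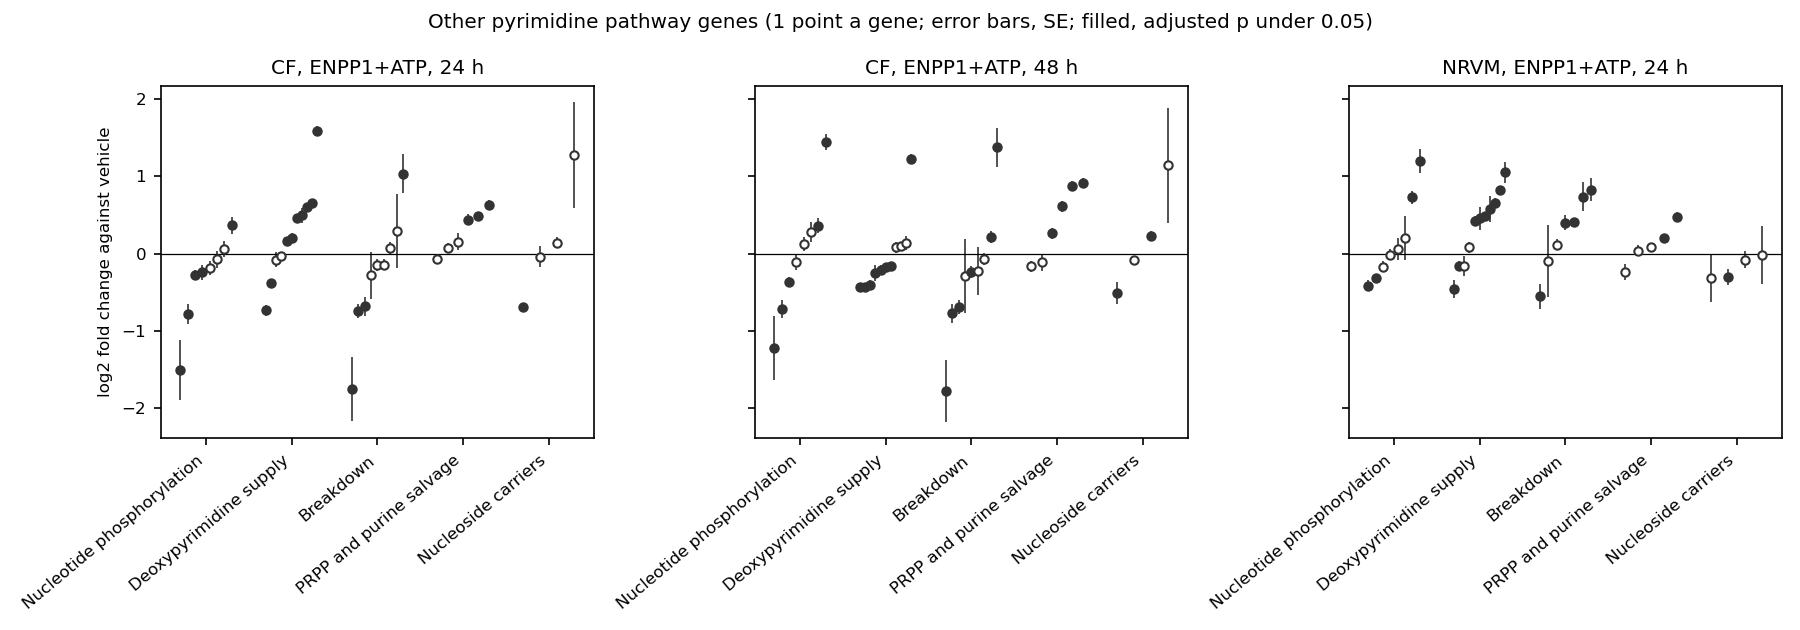
Log2 fold change of ENPP1+ATP against vehicle (vertical axes) of the other genes of pyrimidine metabolism in 5 functional groups, in CFs at 24 h, CFs at 48 h and NRVMs at 24 h, with filled points where the adjusted p was under 0.05. In CFs the deoxypyrimidine genes are 7 up and 2 down at 24 h and 1 up and 7 down at 48 h, and Rrm2 is up in all 3 panels.

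The genes whose group means over the 10 CF groups followed a member most closely were named for Cad, Umps and Upp1, by Pearson r of log2 CPM among 10874 genes with a mean of at least 2. They were Arhgap23 (r = 0.992), Hpcal1 (0.990) and Ccdc58 (0.990) for Cad, and Golga5 (0.976), Hsp90aa1 (0.976) and Zkscan1 (0.973) for Umps. For Upp1 they were Plk2 (0.997), Asap3 (0.996) and Fosl1 (0.993). Among the 10 genes themselves r was 0.904 between Upp1 and Umps, 0.78 between Upp1 and Cad, -0.907 between Upp1 and Dhodh and -0.884 between Uck1 and Ctps2. The 10 points share media, times and libraries, so these values describe the groups and carry no test.

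In the injured heart the single-cell libraries kept 7255 ENPP1CKO and 5240 control cells, and 68 barcodes occurred in both. Classes were named by marker genes from 17 clusters. Fibroblast-like cells numbered 3754 and 1979 in the ENPP1CKO and control libraries, with median depths of 4056 and 5239 counts per cell. Macrophage-like cells numbered 2078 and 2567 (3275 and 3240 counts) and endothelial-like cells 932 and 192 (1472 and 2602 counts). Enpp1, the deleted gene, served as a check of the labels: fibroblast-like cells had 28.7 CPM after deletion and 120.5 CPM in the control, and macrophage-like cells 10.6 and 13.3 CPM. With 1 library per genotype there is no test, and the intervals below are exact 95% limits of counting error only.

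Upp1, lowest of the 10 genes in vehicle-treated CFs, had most of its counts in endothelial-like cells in the heart. Endothelial-like cells held 215 (ENPP1CKO) and 97 (control) counts, or 124.8 CPM (108.7 to 142.7) and 173.3 CPM (140.5 to 211.4). Fibroblast-like cells held 10 and 12 counts (0.598 and 1.04 CPM) and macrophage-like cells 8 and 18 (1.11 and 2.05 CPM). Smooth muscle and pericyte-like cells held 0 in both, with upper limits of 8.93 and 10 CPM. Within the endothelial-like class most Upp1 counts, 212 and 94, came from the larger cluster, and the Prox1 and Ccl21a cluster held 3 and 3. The log2 ratio of ENPP1CKO to control in endothelial-like cells was -0.47 (-0.83 to -0.11), beside the lower depth of the ENPP1CKO cells given above. Neutrophil-like cells, 16 and 97 in number, had 7 and 7 Upp1 counts.

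Cda was also highest in endothelial-like cells among these 3 classes. It was at 52.8 and 51.8 CPM in endothelial-like cells (91 and 29 counts), 1.86 and 3.89 CPM in fibroblast-like cells and 0.418 and 0.797 CPM in macrophage-like cells (3 and 7 counts). The endothelial-like values of the 2 libraries did not separate (log2 ratio 0.03, -0.59 to 0.68). In the Prox1 and Ccl21a cluster it reached 123.5 and 62.4 CPM, from 21 and 6 counts.

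The other genes were spread more evenly. In fibroblast-like cells Ctps2 was at 25.7 and 28.5 CPM in the ENPP1CKO and control libraries, Ctps at 19.7 and 27.1, Uck1 at 18.6 and 14.8, Uck2 at 13.8 and 20.9, Umps at 9.15 and 12.1, Dhodh at 7.96 and 7.61, Cad at 5.68 and 6.40 and Uprt at 1.26 and 0.779 CPM. In macrophage-like cells Ctps2 (24.6 and 27.2 CPM) and Umps (13.9 and 15.9 CPM) were at levels of this order, while Ctps was at 2.37 and 2.73 CPM and Cad at 1.25 and 2.62 CPM. Umps in endothelial-like cells was at 9.29 and 8.93 CPM.

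**Figure D5:**
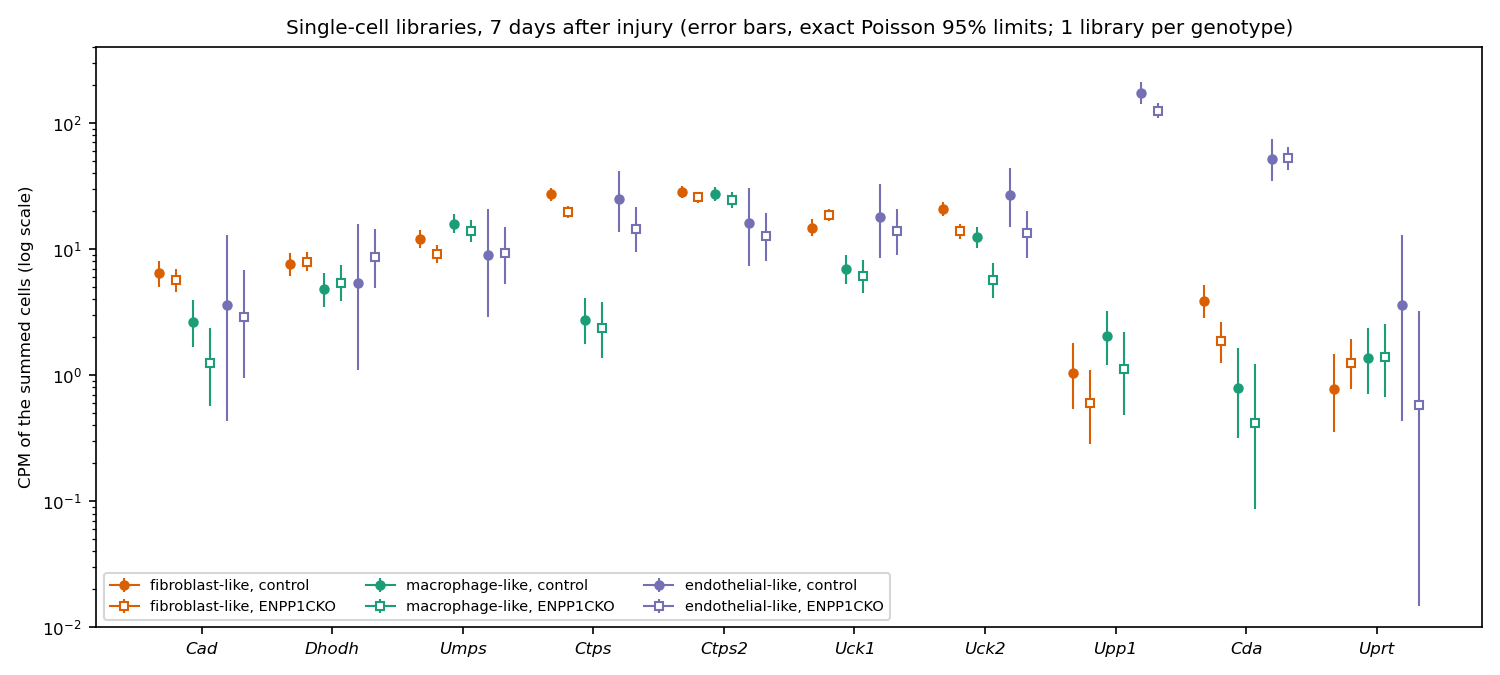
Level of each of the 10 genes in CPM (vertical log axis) in fibroblast-like, macrophage-like and endothelial-like cells of the ENPP1CKO and control libraries, with exact Poisson 95% limits. Upp1 is at 124.8 and 173.3 CPM in endothelial-like cells and at 0.598 and 1.04 CPM in fibroblast-like cells.

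Between the libraries, fibroblast-like cells of the ENPP1CKO heart showed lower Cda (log2 ratio -1.07, -1.78 to -0.38), Uck2 (-0.60, -0.87 to -0.33), Ctps (-0.46, -0.69 to -0.23) and Umps (-0.40, -0.74 to -0.06), and higher Uck1 (0.33, 0.05 to 0.60). Intervals for Cad, Ctps2, Dhodh, Upp1 and Uprt included 0. Past 1.5-fold were 1 gene higher, Uprt (0.69, -0.50 to 2.00, from 21 and 9 counts), and 3 lower, Cda, Uck2 and Upp1, where 6.49% and 9.51% of genes with at least 20 counts were higher and lower. The clusters of the class were filled unequally in the 2 libraries. The cluster led by Sfrp2 and Clec3b held 1607 and 1039 cells, that led by C1qtnf3 and Cilp 1847 and 288, and that led by C1qtnf3, Col11a1 and Tagln 176 and 459. In the cluster led by Sfrp2 and Clec3b, Uck2 was at 10.5 and 14.6 CPM (log2 ratio -0.47, -0.98 to 0.03) and Umps at 9.38 and 11.1 CPM (-0.24, -0.80 to 0.31). In the cluster led by C1qtnf3 and Cilp, Uck2 was at 14.8 and 13.3 CPM (0.16, -0.53 to 0.92) and Umps at 7.83 and 7.96 CPM (-0.02, -0.92 to 1.00), where the control library held only 20 and 12 counts. In the cluster led by C1qtnf3, Col11a1 and Tagln, Uck2 was at 26.4 and 32.3 CPM (-0.29, -0.91 to 0.29) and Umps at 16.5 and 12.9 CPM, opposite to the class (0.36, -0.48 to 1.15). Ctps in these 3 clusters, in the same order, had log2 ratios of -0.21 (-0.56 to 0.16), -0.50 (-1.06 to 0.08) and 0.21 (-0.38 to 0.76). Within single fibroblast-like clusters no interval for Ctps, Cda or Uck1 was clear of 0. Ctps2, whose class interval included 0, was lower in the cluster led by Ifit3 and Ifit3b (7 and 20 counts, -1.65, -3.13 to -0.35). The class also includes a cluster led by Serpinb2, Saa3 and Wt1, with 27 and 116 cells, which passed the fibroblast markers although Wt1 is known from mesothelial and epicardial cells. Without it, an alternative chosen after seeing the data, the interval for Umps included 0 (-0.29, -0.65 to 0.07), while Cda (-0.98, -1.74 to -0.23), Uck2 (-0.55, -0.83 to -0.27), Ctps (-0.39, -0.63 to -0.15) and Uck1 (0.33, 0.04 to 0.62) kept their side, and 0 genes were higher and 2 lower past 1.5-fold. With every cell thinned to 1000 counts the class log2 ratio for Umps reversed, to 0.35, and that for Ctps was -0.03.

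Macrophage-like cells of the ENPP1CKO library had lower Uck2, at 5.71 against 12.4 CPM (41 and 109 counts, log2 ratio -1.12, -1.68 to -0.59). The cluster led by Ms4a4c and Chil3 had 7.37 and 35.6 CPM (9 and 50 counts). In the largest macrophage-like cluster Uck2 was at 5.38 and 5.60 CPM (30 and 30 counts). With cells thinned to 1000 counts the class log2 ratio of Uck2 was -1.85, and with the stricter cell filter (500 genes, 10% mitochondrial) it was -0.72. Of 9 genes with enough counts 0 were higher and 3 lower past 1.5-fold, Cad, Uck2 and Upp1 (4.27% and 14.1% of genes), and the intervals for Cad (-2.36 to 0.10) and Upp1 (-2.29 to 0.39) included 0. A cluster of 55 and 824 cells held 9 of the 23 control counts of Cad, 27 of the 109 of Uck2 and 6 of the 18 of Upp1. In the largest cluster Cad was at 1.43 and 1.68 CPM (8 and 9 counts) and Upp1 at 1.26 and 0.933 CPM (7 and 5 counts). In endothelial-like cells 0 of 7 were higher and 2 lower, Ctps and Uck2 (13.2% and 13.4%), with 25 and 14 counts for Ctps (-1.78 to 0.27) and 23 and 15 for Uck2 (-2.005 to 0.04), so both intervals included 0.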

How the data were processed

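RNA-Seq was performed on CFs (20 libraries), NRVMs (15 libraries) and 2 single-cell libraries of injured hearts. The authors deposited raw counts per gene, aligned to mm10 or rn6 with STAR 2.5.3a, and Cell Ranger count matrices, per the labels and submitters' processing notes. Whether strand was used in counting was not given in the sources used here. All 20 and 15 libraries were fitted in edgeR 4.0.16 (R 4.3.3), with TMM scaling, filterByExpr and quasi-likelihood tests, Benjamini-Hochberg adjusted over 17879 and 13461 genes at 0.05. The standard error is the absolute log2 fold change divided by the square root of F. CPM are from TMM library sizes. On simulated CF data 67% of 2-fold changes were recovered, with 4.62% false calls, and 88% and 4.97% on NRVM data. For a log2 change of 0.5, closer to most changes reported, 57% and 65% were recovered. Each simulation changed 200 genes, whereas 4265 genes rose and 4522 fell under ENPP1+ATP in CFs at 24 h, so these shares may not hold for the data. The recovery asked of the simulation was lowered after its first run on CF data. Single cells were kept from 200 detected genes upward and with no more than 20% mitochondrial counts, Scrublet doublets were removed (151 ENPP1CKO and 69 control), and cells were clustered with scanpy 1.11.5 (Leiden 0.5, without the 10 genes or Enpp1). Clusters were named by at least 3 markers. Counts were summed per class and library. The 1.5-fold rule was chosen after a count by intervals had been seen.

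The 10 genes, the lists and the tests were chosen with earlier results of these data known. The rule for named genes took all 10 genes in every comparison, and those that did not pass are given by counts where many did not. Of the other pathway genes, up to 4 rises and 4 falls with the largest log2 fold change were named in each ENPP1+ATP comparison with vehicle, and for Cad, Umps and Upp1 the 3 genes with the highest r. Alternatives were DESeq2 1.42.0, RLE scaling, no low-count filter, libraries of 1 time only, a replicate block, each library left out, and for single cells a Leiden resolution of 1.0, doublets kept, stricter cell filters (500 genes, 10% mitochondrial) thinning to 1000 counts and, chosen after seeing the data, fibroblast-like cells without 1 cluster.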

Additional observations from a re-analysis of the deposited data

Results flagged for a closer look

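In CFs the effect of ENPP1+ATP against vehicle differed between 24 and 48 h by a tested interaction for 3 genes of 10, where 15.1% of all genes were higher and 14.9% lower. The change in log2 fold change was 0.37 for Cad, 0.41 for Ctps2 and -0.42 for Uck1. The effect of AMP differed between the times for 5 genes of 10 (17.3% of all genes higher and 14.4% lower), by 0.39 for Cad, 0.66 for Ctps2, -0.41 for Uck1, 1.02 for Cda and 0.55 for Uprt. Of the 8 fits that left out a library, the Cda value under AMP lost its call in 5: without AMP replicate 1 at 24 h (adjusted p = 0.171), vehicle replicate 1 at 24 h (0.2), AMP replicate 2 at 48 h (0.228), vehicle replicate 1 at 48 h (0.133) and vehicle replicate 2 at 48 h (0.0697). The Uprt value lost it in 2, without vehicle replicate 2 at 24 h (0.0701) and AMP replicate 1 at 48 h (0.0793).

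At 24 h some genes moved in opposite directions in CFs and NRVMs, with every library on its own side of vehicle, and the difference between the cell types was not tested. At that time ENPP1+ATP moved 23.9% of all genes up and 25.3% down in CFs, and 28.6% and 27.4% in NRVMs. The share of all genes with opposite directions was not counted, so these genes are not shown to be unusual. Under ENPP1+ATP, Cad had a log2 fold change of 0.17 in CFs and -0.21 in NRVMs, and Upp1 had 1.49 and -0.28. The Cad call in CFs was lost in some fits that left out a library, which gave 0.15 to 0.19. Under AMP, Upp1 had 2.12 in CFs and -0.67 in NRVMs. Under ATP alone, Upp1 had 0.45 in CFs (not past the test) and -0.93 in NRVMs, and Ctps had 0.14 (not past the test) and -0.16. With 2 or 3 libraries per group, no rule for outlying libraries was applied, though each library was left out in turn.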

How the results depend on the processing

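Of 296 counts of the 10 genes recomputed in CFs, 277 stayed within 1.5 times the reported count, and of 80 in NRVMs 77 did. Under ATP at 24 h in CFs the count of rises went from 0 to 1 with DESeq2 and RLE scaling, and lay between 0 and 1 on leaving out libraries. Under AMP at 48 h the falls went from 2 to 1 with DESeq2 and RLE scaling and were 1 without any 1 library, and the rises ranged from 2 to 4. Under ATP at 48 h the rises went from 2 to 1 without the low-count filter, with libraries of that time only, and without any 1 library. Leaving out libraries gave 2 to 4 falls for ENPP1+ATP against ATP at 48 h, 1 to 2 lower genes for the ENPP1+ATP change over time, and 1 to 2 rises under ENPP1+ATP and under ATP in NRVMs. The cause was not tested.

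Same-numbered replicates met no rule for pairing, though the CF libraries gave mixed evidence. Of 90 pairs of same-numbered CF libraries r of their deviations was above 0.1 in 6, and of 30 such NRVM pairs in 1. In CFs 16 of 20 libraries, and in NRVMs 6 of 15, correlated best with their own number. The replicate block moved 3 counts by 1: rises under ENPP1+ATP at 48 h from 3 to 4 (Cda, adjusted p = 0.0357), against ATP at 24 h from 3 to 4 (Cad, 0.0194) and in the change over time from 2 to 3 (Cda, 0.0347).

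In single cells, keeping doublets took fibroblast-like cells from 1 higher and 3 lower to 0 and 1, and endothelial-like cells from 0 higher to 1. Thinning to 1000 counts, which left out 504 ENPP1CKO and 423 control cells, gave 0 higher in fibroblast-like cells (also 0 without the cluster led by Saa3 and Wt1), 1 higher in macrophage-like cells and 0 lower in endothelial-like cells, where Ctps and Uck2 no longer had enough counts to be counted. It reversed Umps in fibroblast-like cells, from -0.40 to 0.35, and moved Cad to 0.29, Ctps to -0.03 and Ctps2 to -0.60 there, and Uck2 to -1.85 and Umps to 0.59 in macrophage-like cells. In fibroblast-like cells counts were lowest for Upp1 and Uprt, at 10 and 21 in the ENPP1CKO library. In macrophage-like cells they were lowest for Cda, at 3 and 7 in the ENPP1CKO and control libraries.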

Other observations

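Some values lie outside the 3 large cell classes. In dendritic-like cells, 81 ENPP1CKO and 96 control cells, Uck2 was at 43.8 and 69.4 CPM, from 16 and 29 counts, above its level in fibroblast-like cells. Neutrophil-like cells held 7 and 7 Upp1 counts, in 2 of 16 and 5 of 97 cells. These gave 445 CPM (178.9 to 916.9) and 86.1 CPM (34.6 to 177.4), wide limits from few cells. The macrophage-like cluster with the highest summed cell cycle genes, 41 and 45 cells, held 6 and 7 Umps counts (25.3 and 23.5 CPM). It held 0 counts of Cad, Upp1 and Cda in both libraries, with upper limits of 15.5 and 12.4 CPM. These limits lie above Cad in all macrophage-like cells, at 1.25 and 2.62 CPM, so the 0 counts do not show absence.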
